A study of Homo sapiens with 12 samples.

Results

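The cytochrome P450 (CYP) and UDP-glucuronosyltransferase (UGT) genes were examined for their place in NADs, short for nucleolus-associated domains, which are parts of the chromosomes recovered together with isolated nucleoli. Members were the RefSeq protein-coding genes of GRCh38 with a symbol of the form CYP, number, letter, number, or with a symbol that starts with UGT1A, UGT2A, UGT2B or UGT3A. This gave 76 genes, 55 CYP and 21 UGT, of the 19821 protein-coding genes on chromosomes 1 to 22 and X. The cells were H9, an established line of human embryonic stem cells, untreated and in a pair of states: naive cells, grown in RSeT, and primed cells, grown in mTeSR. Nucleolar DNA and whole-cell DNA of each state were sequenced in 3 replicates, 12 libraries in 4 groups of 3. The authors deposited 1 list of regions per state, 61750 naive and 29994 primed regions on hg38, with all but 8 naive and 12 primed limits on a 10 kb grid. All values come from this single line. With no replicate list there is no error across cultures and no test of any difference below, and the read depth of the libraries is unknown. The libraries are DNA, so the naive and primed states could not be checked against transcript markers.

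P450 enzymes are haem proteins that insert oxygen into their substrates. Members of CYP1, CYP2 and CYP3 act mainly on drugs and other foreign compounds, and most other families act on fatty acids, sterols, bile acids, steroid hormones, vitamin D or retinoic acid. UGT enzymes attach a sugar to such products, which makes them soluble for excretion in bile or urine. Many of these genes lie in tandem clusters that arose by duplication, and most are used in differentiated tissues such as liver, gut, kidney and adrenal gland. Silent chromatin is often found in NADs. In the UGT1A locus, alternative first exons, each with a promoter of its own, are spliced to a common set of exons, so the UGT1A genes share their downstream DNA.

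The promoters of 6 genes are shown as examples of genes that differ between the lists. They are those of the neighbours CYP1A1 and CYP1A2, whose bodies lay mainly in opposite lists, the close relatives CYP3A4 and CYP3A7, and UGT2B7 and CYP2U1, whose promoters lay in naive regions only. Each window is taken from RefSeq GRCh38.p14 and runs 5′ to 3′ on the gene's strand, from 250 bases before the start to 50 bases after it. Capitals mark every match on either strand to TATAAA, the core promoter box, or to GCGTG, the core bound by the aryl hydrocarbon receptor with its partner ARNT. The windows lie at chr15:74725479-74725778 (minus strand), chr15:74748595-74748894 (plus), chr7:99784135-99784434 (minus), chr7:99735147-99735446 (minus), chr4:69096224-69096523 (plus) and chr4:107931299-107931598 (plus), in the order below.
CYP1A1: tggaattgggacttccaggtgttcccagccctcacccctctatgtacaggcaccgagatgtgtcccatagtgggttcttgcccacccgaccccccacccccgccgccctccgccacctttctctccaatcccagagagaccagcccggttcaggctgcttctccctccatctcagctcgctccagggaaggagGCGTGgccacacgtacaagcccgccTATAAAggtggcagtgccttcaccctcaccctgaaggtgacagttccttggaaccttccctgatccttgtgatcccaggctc
CYP1A2: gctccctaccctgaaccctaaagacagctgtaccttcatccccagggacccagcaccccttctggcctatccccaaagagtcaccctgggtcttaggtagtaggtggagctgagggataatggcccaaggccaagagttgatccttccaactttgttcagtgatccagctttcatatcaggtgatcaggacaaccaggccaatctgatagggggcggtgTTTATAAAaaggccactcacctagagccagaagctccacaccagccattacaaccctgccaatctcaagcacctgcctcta
CYP3A4: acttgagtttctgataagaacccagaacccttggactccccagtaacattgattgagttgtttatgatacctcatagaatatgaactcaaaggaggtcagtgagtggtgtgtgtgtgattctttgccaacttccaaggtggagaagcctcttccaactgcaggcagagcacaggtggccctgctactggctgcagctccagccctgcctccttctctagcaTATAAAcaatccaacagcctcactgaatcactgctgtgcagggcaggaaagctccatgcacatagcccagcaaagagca
CYP3A7: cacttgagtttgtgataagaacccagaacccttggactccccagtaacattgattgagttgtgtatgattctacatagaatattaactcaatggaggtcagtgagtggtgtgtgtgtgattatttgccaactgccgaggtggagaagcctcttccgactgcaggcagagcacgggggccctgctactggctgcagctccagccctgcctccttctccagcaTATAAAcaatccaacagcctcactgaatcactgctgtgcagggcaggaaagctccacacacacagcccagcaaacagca
UGT2B7: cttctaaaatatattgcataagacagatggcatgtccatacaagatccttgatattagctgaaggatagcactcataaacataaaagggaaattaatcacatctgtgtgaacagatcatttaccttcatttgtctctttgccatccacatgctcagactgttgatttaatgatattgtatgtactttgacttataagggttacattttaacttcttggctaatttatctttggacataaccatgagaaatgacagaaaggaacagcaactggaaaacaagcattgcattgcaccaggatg
CYP2U1: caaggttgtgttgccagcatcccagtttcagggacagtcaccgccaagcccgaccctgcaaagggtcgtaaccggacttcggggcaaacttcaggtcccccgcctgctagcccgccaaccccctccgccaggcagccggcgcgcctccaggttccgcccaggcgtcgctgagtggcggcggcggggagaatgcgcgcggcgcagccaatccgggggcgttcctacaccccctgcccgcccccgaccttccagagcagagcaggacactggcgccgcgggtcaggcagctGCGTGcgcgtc

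The CYP1A1 window holds TATAAA 32 bases and GCGTG 57 bases before the start, and it lay in a primed region only. The CYP1A2 window has TATAAA 29 bases before the start, overlapped by a match on the other strand, and lay in regions of both lists. Those of CYP3A4 (both lists) and CYP3A7 (primed only) hold TATAAA at the same distance, 29 bases before the start, and were identical at 282 of 299 aligned positions (94.3%). UGT2B7 has no match to either motif, and its start lies 45099 bases inside the outer limit of the RefSeq gene body. CYP2U1 has GCGTG 39 bases after the start.

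The first comparison was how many members lay in NADs in each state, and how much of each gene body was covered. A smaller share of CYP and UGT genes than of protein-coding genes in general touched a NAD. A gene counted if at least 1 base of its body was in a region. By that rule 47 of 76 members (61.8%) lay in naive NADs, beside 76.8% of all protein-coding genes, and 56 (73.7%) in primed NADs, beside 81.8%. Both lists held 35 members (46.1%, beside 65.2% of coding genes), the naive list alone 12 (15.8%, beside 11.6%), the primed list alone 21 (27.6%, beside 16.6%) and neither list 8 (10.5%, beside 6.57%). The UGT1A genes share DNA and weigh in these counts: with the UGT1A genes taken as 1 locus, 46 of 68 lay in naive NADs (67.6%) and 48 in primed NADs (70.6%), and 14 in primed NADs alone (20.6%). The gap to all coding genes was then the wider in the primed list, and in the naive list when the UGT1A genes counted singly. The order of the lists turned with 10 kb added on each side of the body (61 naive, 60 primed) and with regions up to 50 kb apart merged (61 naive, 58 primed). It turned over all coding genes too, with 89.8% in naive and 86.7% in primed NADs in the first case and 88.7% and 85.4% in the second.

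The covered share of the gene body gives the same order. Its median over the members was 20.4% in the naive list and 68.9% in the primed list, against 35.6% and 75.8% over all protein-coding genes. With UGT1A as 1 locus the members' medians were 23.9% and 77.6%, and the primed one lay above that of coding genes. No member touched a naive region of 100 kb or more, and the longest naive region at a member was 60 kb. Such long naive regions were rare at genes in general, with 1.85% of coding genes touching one. Primed regions of at least 100 kb touched 26 members (34.2%, beside 37.6%), and the longest, 6200 kb, ran over the CYP2 cluster of chromosome 19. The primed share exceeded the naive share in 47 members (61.8%, beside 56.2% of coding genes), the naive share was higher in 17 (22.4%, beside 24.2%), and 12 had equal values. Of those 47, 9 were UGT1A genes, which share DNA.

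Covered bodies were fuller in the primed list. At least 50% of the body was covered in 15 members in naive NADs (19.7%, beside 34.7%) and in 44 in primed NADs (57.9%, beside 61.2%). In primed NADs, 27 members had 100% of the body covered (35.5%, beside 41.8%), all of them CYP genes, and in naive NADs 6 had (7.89%, beside 12.6%). A difference of 50 points or more towards the primed list was found in 33 members (43.4%, beside 27.6%) and towards the naive list in 4 (5.26%, beside 5.69%). Those 4 were CYP2U1, CYP4B1, CYP1A2 and UGT2B10. Of the 33 towards the primed list, 8 were UGT1A genes, which share DNA. CYP8B1, CYP2W1 and CYP4F8 were at 100% in both lists (3.95% of members, beside 9.85%). At 100% in primed and 0 in naive NADs were 8 members (10.5%, beside 11%): CYP4A11, CYP11B1, CYP11B2, CYP2A6, CYP2A7, CYP2A13, CYP2F1 and CYP2D6.

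Gene length bears on these counts, because 17 members are shorter than 10 kb and a gene shorter than a grid bin tends to be all in or all out. Of the short members 4 lay in naive NADs, where 54.3% of short coding genes did, and 12 in primed NADs, where 78.4% did. None of them lay in naive NADs alone (beside 8.39%) and 8 in primed NADs alone (47.1%, beside 32.5%), and 9 were at 100% in primed NADs (52.9%, beside 68.0%). Of the 59 longer members 43 (72.9%, beside 85.6%) lay in naive and 44 (74.6%, beside 83.2%) in primed NADs. Of these 12 lay in naive NADs alone (20.3%, beside 12.9%), 13 in primed NADs alone (beside 10.4%), and 18 were at 100% in primed NADs (30.5%, beside 31.6%). Of the 13 in primed NADs alone, 7 were UGT1A genes, which share DNA and are not separate measurements. Summed over the union of all member bodies, 2.30 Mb, the covered share was 33.4% in naive and 55.3% in primed NADs. Over the union of all coding genes it was 39.1% and 46.9%.

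**Figure D1:**
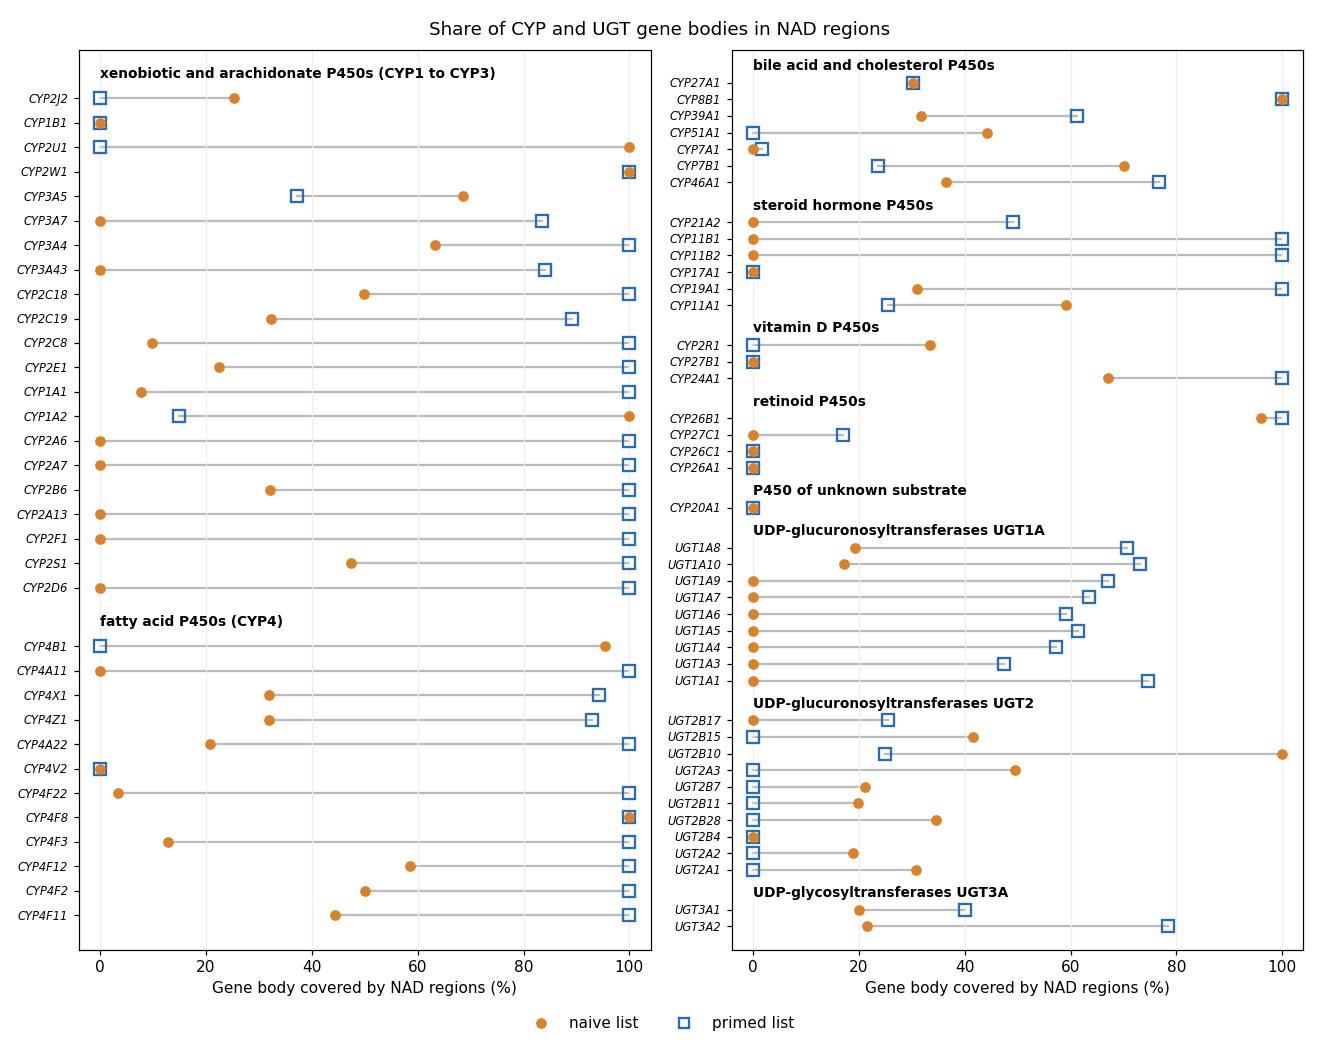
Share of each gene body covered by NAD regions (horizontal axis, percent) for the members named by gene, grouped by role, in the naive list (filled circles) and the primed list (open squares). The UGT1A genes have squares between 47.4% and 74.7% with circles at 19.3% or less, while 8 of the 10 UGT2 genes have the square at 0.

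The CYP1, CYP2 and CYP3 genes came next, whose enzymes act mainly on foreign compounds and in some cases on fatty acids. CYP2R1 was set apart here as a vitamin D enzyme. Of the other 22 genes, 14 lay in naive and 19 in primed NADs. These were 63.6% and 86.4%, beside 76.8% and 81.8% of coding genes. The medians were 23.9% and 100%, beside 35.6% and 75.8%. A single locus weighs in these values. The CYP2 cluster of chromosome 19 gave 6 of the genes, all inside 1 primed region and only 2 of them in naive NADs. On that chromosome 94.1% of coding genes were at 100% in primed NADs. In the CYP1 family the neighbours CYP1A1 and CYP1A2 on chromosome 15 differed most. CYP1A1, an oxidase of polycyclic aromatic hydrocarbons (74719542 to 74725528), had 7.67% of its body in naive and 100% in primed NADs. CYP1A2, the liver enzyme that clears caffeine (74748845 to 74756607), had 100% in naive and 14.9% in primed NADs.

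The region limits show how narrow this contrast is. A primed region from 74710001 to 74750000 held all of CYP1A1 and ended 1.16 kb inside CYP1A2. Naive regions lay from 74700001 to 74720000 and from 74740001 to 74760000, and left the bins over most of CYP1A1 empty. Each gene spans at most 2 bins. CYP1B1, which oxidises oestradiol and aromatic hydrocarbons, lay in neither list on chromosome 2, with the nearest naive region 23.8 kb and the nearest primed region 93.8 kb away.

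The CYP2 family had 16 members, of which 11 lay in naive (68.75%, beside 76.8%) and 13 in primed NADs (81.25%, beside 81.8%). In the primed list 11 were at 100%, as were 41.8% of coding genes. Its cluster of 6 on chromosome 19 (40843541 to 41207539) lay inside a single primed region of 6200 kb. In the naive list CYP2A6, the nicotine oxidase, was at 0, as were CYP2A7, CYP2A13 and CYP2F1. CYP2B6, an enzyme of many drugs, was at 32.2% and CYP2S1 at 47.4% there. Naive regions covered 43.96% of the cluster's span in 8 stretches. All 4 members at 0 had a naive region within 9.55 kb.

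The CYP2C cluster on chromosome 10 (94683729 to 95069497) lay in both lists with all 4 of its genes. CYP2C18 had 49.9% in naive and 100% in primed NADs. CYP2C19, which activates clopidogrel, had 32.3% and 89.2%, and CYP2C8, which oxidises paclitaxel, had 9.87% and 100%. The primed share was thus the higher for each of these genes. Primed cover of the span, 84.4%, came in 7 regions with gaps, not in an unbroken stretch.

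The CYP2 genes that stand alone were the most varied. CYP2U1, a fatty acid hydroxylase on chromosome 4 (107931549 to 107953461), had 100% in naive and 0 in primed NADs, the sole member with that pattern (1.32%, beside 1.77% of coding genes). CYP2J2, which makes epoxides of arachidonic acid, had 25.3% in naive and 0 in primed NADs. CYP2R1, the liver hydroxylase of vitamin D, had 33.4% and 0. CYP2D6, which converts codeine to morphine, had 0 in naive and 100% in primed NADs, whereas its neighbouring pseudogene CYP2D7 had 91.3% and 8.66%. CYP2E1, the ethanol oxidase, had 22.4% and 100%.

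In the CYP3A cluster on chromosome 7 (99648194 to 99866093) every gene lay in primed NADs and only CYP3A5 and CYP3A4 lay in naive NADs too. CYP3A4, the main drug-oxidising P450 of adult liver, had 63.3% in naive and 100% in primed NADs. CYP3A7, its fetal liver counterpart, had 0 and 83.5%, and CYP3A43 0 and 84.0%. CYP3A5 was the exception in direction, with 68.6% in naive and 37.1% in primed NADs. A primed region of 150 kb, from 99710001 to 99860000, spanned CYP3A4 and most of CYP3A7 and CYP3A43. The naive regions stopped short of the last 2: CYP3A7 lay 5.04 kb and CYP3A43 23.9 kb from the nearest.

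**Figure D2:**
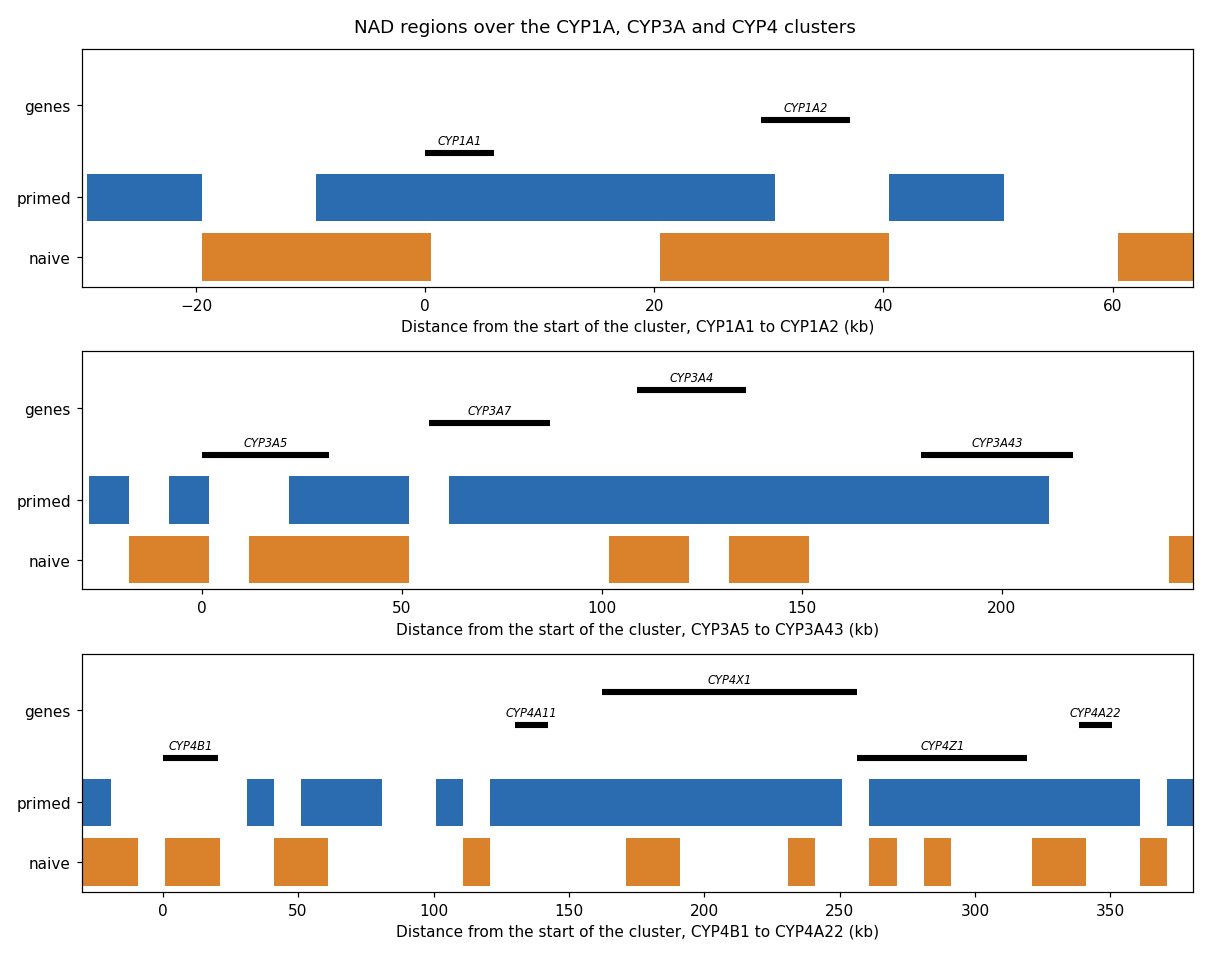
NAD regions (orange, naive; blue, primed) and gene bodies (black) over the CYP1A, CYP3A and CYP4 clusters, by distance from the cluster's start (horizontal axis, kb). The 40 kb primed region over CYP1A1 ends just inside CYP1A2, the 150 kb primed region spans CYP3A4, and CYP4B1 alone lies in a naive region with no primed region over it.

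The fatty acid P450s of the CYP4 family lay in naive and primed NADs equally often, with the higher median cover in the primed list. Of 12 members 10 lay in naive and 10 in primed NADs (83.3% each, beside 76.8% and 81.8% of coding genes). The medians were 31.9% and 100%, beside 35.6% and 75.8%. Of the 8 members at 100% in primed NADs, 6 were CYP4F genes. On chromosome 19 the 6 CYP4F genes (15508525 to 15934867) lay inside a primed region of 2880 kb. Their naive shares ran from 3.37% for CYP4F22, which makes skin ceramides, to 100% for CYP4F8. CYP4F2, a hydroxylase of vitamin K and leukotriene B, was at 50.1%, CYP4F12 at 58.5%, CYP4F11 at 44.5% and CYP4F3 at 12.9%. All 12 CYP genes of chromosome 19 were at 100% in primed NADs, on a chromosome where 99.9% of coding genes touched a primed region and 94.1% were at 100%. In naive NADs lay 8 of the 12 (66.7%, beside 78.4%). None lay in naive NADs alone (beside 0.0709%), and 4 in primed NADs alone (33.3%, beside 21.6%).

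The CYP4 cluster of chromosome 1 (46799046 to 47149727) held genes of opposite placement. CYP4B1, at its left end, had 95.3% in naive and 0 in primed NADs, with a primed region 10.6 kb away. CYP4A11, an omega-hydroxylase of fatty acids in liver and kidney, had 0 and 100%, and its near copy CYP4A22 20.8% and 100%. CYP4X1 had 31.9% and 94.2%, and CYP4Z1 31.8% and 92.9%. Outside the clusters CYP4V2, whose loss causes a retinal dystrophy, lay in neither list, 1.57 kb from a region in each.

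The sterol and bile acid P450s were split in direction. The naive share was higher in 2 of 7 genes, the primed share in 3, and 2 were equal. The medians were 36.5% in naive and 30.2% in primed NADs, and 6 lay in each list (85.7%, beside 76.8% and 81.8% of coding genes). CYP7A1, the rate-limiting enzyme of bile acid synthesis, had 0 in naive NADs and 0.163 kb (1.63%) in a primed region at its edge. CYP7B1, an oxysterol hydroxylase and the longest member (212.2 kb), had 70.1% in naive and 23.6% in primed NADs. CYP51A1, which demethylates lanosterol, had 44.1% and 0. CYP8B1, which sets the proportion of cholic acid, was at 100% in both, and CYP27A1 had the same 10 kb, 30.2%, in both. CYP39A1 had 31.8% and 61.3%, and CYP46A1, the cholesterol hydroxylase of neurons, 36.5% and 76.7%.

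Of the 6 steroid hormone P450s, 2 lay in naive (33.3%, beside 76.8% of coding genes) and 5 in primed NADs (83.3%, beside 81.8%). These are short genes, with a median length of 7.38 kb against 24.5 kb over all coding genes. CYP11B1, CYP11B2, CYP21A2 and CYP17A1, which had no naive cover, are each shorter than 10 kb. Of coding genes shorter than 10 kb, 54.3% lay in naive and 78.4% in primed NADs. CYP11B1 and CYP11B2, which complete the synthesis of cortisol and aldosterone on chromosome 8, had 0 in naive and 100% in primed NADs, inside a primed region of 450 kb. The naive list came within 0.175 kb and 0.558 kb of them. CYP19A1, the aromatase that makes oestrogens, had 31.1% in naive and 100% in primed NADs, inside a primed region of 1020 kb. CYP11A1, which cleaves the side chain of cholesterol, had the reverse order with 59.0% and 25.6%. CYP21A2, the adrenal hydroxylase lost in congenital adrenal hyperplasia, had 0 and 49.1%, and its pseudogene CYP21A1P 0 and 100%. CYP17A1, which makes androgen precursors, lay in neither list.

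Vitamin D and retinoid genes gave a mixed picture. CYP24A1, which inactivates vitamin D on chromosome 20, had 67.2% in naive and 100% in primed NADs, and CYP27B1, which activates it, lay in neither list, 12.3 kb from a naive and 2.33 kb from a primed region. Among the CYP26 enzymes, which clear retinoic acid in the embryo, CYP26B1 on chromosome 2 had 95.9% and 100%. The adjoining genes CYP26A1 and CYP26C1 on chromosome 10 lay in neither list, with regions of both lists between 10.8 kb and 30.5 kb away. The flanks of that pair held 24.0% and 31.6% naive and 28.0% and 54.0% primed sequence. CYP27C1, a retinoid desaturase of skin, had 0 in naive and 16.9% in primed NADs, and CYP20A1, a P450 with no settled substrate, lay in neither list.

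The UGT genes fell into opposite patterns by locus. In the UGT1A locus on chromosome 2 (233617633 to 233773300) primed NADs held all 9 genes and naive NADs held 2 (22.2%). Over all coding genes these shares were 81.8% in primed and 76.8% in naive NADs. Primed shares ran from 47.4% for UGT1A3 to 74.7% for UGT1A1, the enzyme that conjugates bilirubin. In naive NADs UGT1A8 had 19.3% and UGT1A10 17.2%, and the other 7 were at 0. The naive cover stopped at 233670000, and UGT1A1 was 66.7 kb from the nearest naive region. The 9 bodies share their 3′ end, so these are not separate measurements. Of the 8 promoter windows given for this locus, 7 lay in primed regions and none in naive ones, and that of UGT1A8, a gut enzyme, lay in neither. UGT1A6, which conjugates simple phenols, had its window near the end of a 60 kb primed region that also held those of UGT1A9 and UGT1A7.

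The UGT2 cluster on chromosome 4 (68537173 to 69653247) had the reverse arrangement. Of its 10 genes 8 lay in naive and 2 in primed NADs, and 7 in naive NADs alone. UGT2B10, which conjugates nicotine, had 100% in naive and 25.0% in primed NADs. UGT2A3 had 49.4%, the androgen enzyme UGT2B15 41.6%, UGT2B28 34.6% and UGT2B7, the morphine enzyme, 21.1% in naive NADs, each with 0 in primed NADs. UGT2A1 and UGT2A2, which share most of their DNA and act in the nasal lining, had 30.8% and 18.8% in naive NADs and 0 in primed NADs. UGT2B11 had 19.9% and 0. UGT2B17, an androgen enzyme, was the exception with 0 in naive and 25.5%, a single bin, in primed NADs. UGT2B4, a bile acid enzyme, lay in neither list, 0.164 kb from a naive and 214 kb from a primed region.

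Across the 1116 kb of this cluster, 25 naive regions of 10 to 40 kb covered 39.4% and 4 primed regions of 10 kb covered 3.58%. The surroundings were alike: the left and right 500 kb held 42.0% and 46.0% naive and 2.00% and 2.00% primed sequence. Of the 11 other coding genes within 500 kb, 9 lay in naive and 2 in primed NADs. Chromosome 4 as a whole had 75.5% of its coding genes in naive and 52.2% in primed NADs, with 31.4% in naive NADs alone and 8.12% in primed NADs alone; 15.2% were at 100% in primed NADs. The 12 members on chromosome 4 are the genes of this cluster with CYP2U1 and CYP4V2. Of these 12, 9 lay in naive NADs (75.0%) and 2 in primed NADs (16.7%). In naive NADs alone lay 8 (66.7%), in primed NADs alone 1 (8.33%), and none was at 100% in primed NADs.

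The pair UGT3A1 and UGT3A2 on chromosome 5, which use other sugars, lay in both lists. UGT3A1 had 19.99% in naive and 40.02% in primed NADs, and UGT3A2 21.6% and 78.4%.

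**Figure D3:**
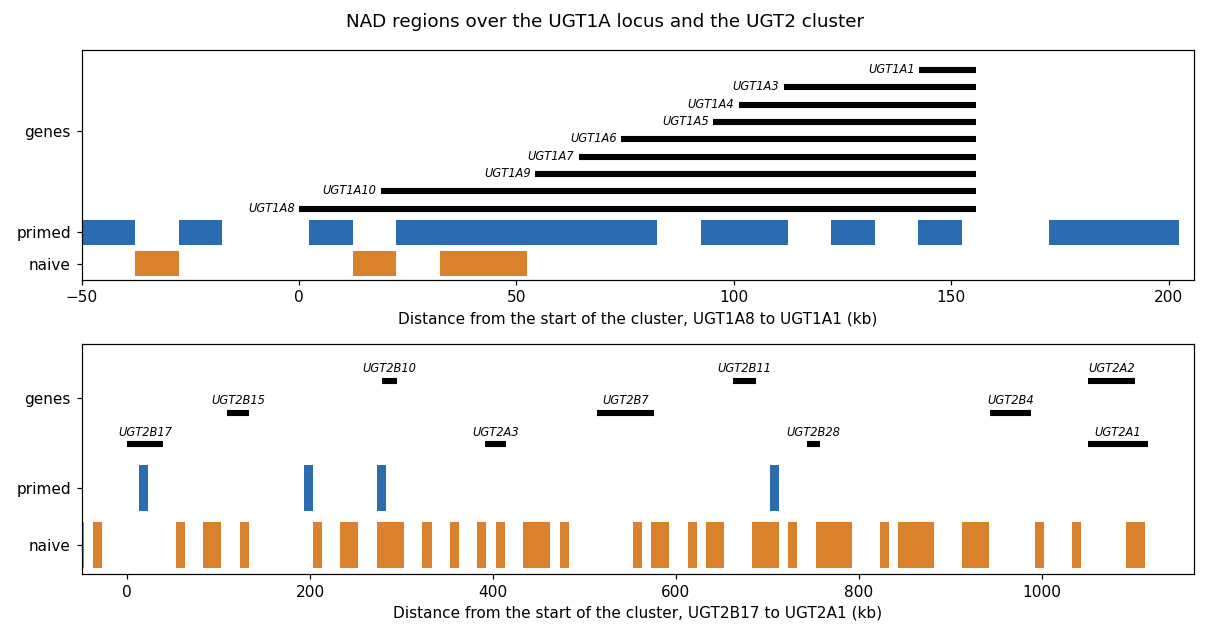
NAD regions (orange, naive; blue, primed) and gene bodies (black) over the UGT1A locus and the UGT2 cluster, by distance from the cluster's start (horizontal axis, kb). Primed regions recur along the UGT1A locus while the naive ones end before UGT1A9; in the UGT2 cluster 25 naive regions stand against 4 primed ones.

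The next comparison set clusters against their surroundings. Members that lie within 250 kb of each other formed 11 clusters with 52 genes, and 24 genes stood alone. Clustered members had medians of 19.05% in naive and 79.5% in primed NADs, and the lone ones 30.6% and 24.6%. Of the 52 clustered genes, 12 lie on chromosome 19, all at 100% in primed NADs, and 9 are UGT1A genes, which share DNA. In naive NADs lay 61.5% of clustered and 62.5% of lone members, and in primed NADs 78.8% and 62.5%. Naive cover of the cluster spans ran from 0 for the CYP26 pair to 58.98% for the CYP4F genes, and primed cover from 0 to 100%. The primed span share exceeded both 500 kb flanks in 5 clusters: UGT1A with 70.7% against 48.0% and 54.7%, CYP3A with 83.4% against 52.0% and 55.2%, CYP1A with 82.2% against 50% and 63.3%, CYP11B with 100% against 78.0% and 92.0%, and UGT2 with 3.58% against 2.00% and 2.00%. The naive span share lay under both flanks in 5 clusters: UGT1A, UGT2, UGT3A, CYP26 and CYP2C. For UGT1A it was 19.3% against 22.5% and 48.0%, and for CYP2C 28.5% against 45.3% and 46.0%. It lay above both flanks in 5 other clusters: CYP3A, CYP11B, CYP1A, CYP4F and the CYP4 genes of chromosome 1, the last with 34.22% against 34.19% and 19.9%.

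**Figure D4:**
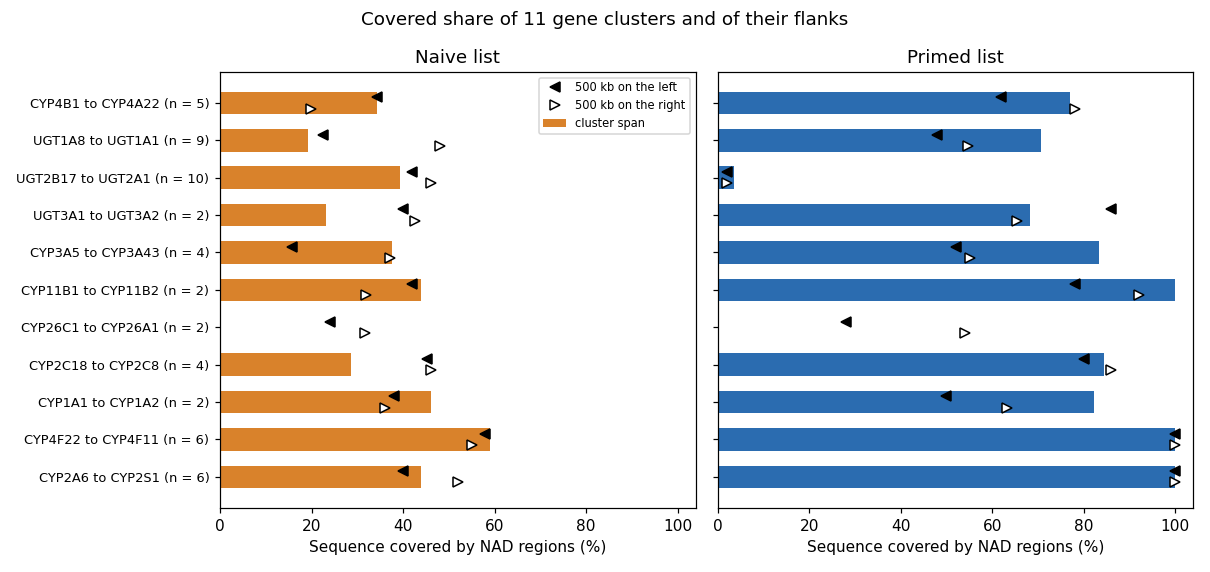
Share of sequence covered by naive (left) and primed (right) NAD regions, in percent, over the span of 11 clusters (bars) and over the 500 kb on either side (triangles). Primed bars range from 0 to 100% with flanks close to them in the UGT2 and chromosome 19 clusters, and naive bars stay under 60%.

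The surroundings of all 76 members were then measured in the same way, over the 500 kb on both sides of each body. Naive flanks differed little, from 16.5% to 61.4% with a median of 37.0%. Primed flanks ran from 2.00% to 100% with a median of 57.3%. Of the 17 members with primed flanks under 20%, 3 lay in primed NADs: UGT2B17, UGT2B10 and CYP7B1. All 24 members with primed flanks of 80% or more lay in primed NADs, 20 of them at 100%, and of the 35 between those limits 29 did. Across the 76 members, body and flank shares had Pearson's r = 0.844 and Spearman's rho = 0.854 in the primed list and r = 0.124 and rho = 0.196 in the naive list. These are descriptions across genes that share a list, and the flanks of clustered members overlap. Against this pattern ran CYP4B1, at 0 in primed NADs with flanks of 69.9%, and CYP27B1, at 0 with 50.5%.

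**Figure D5:**
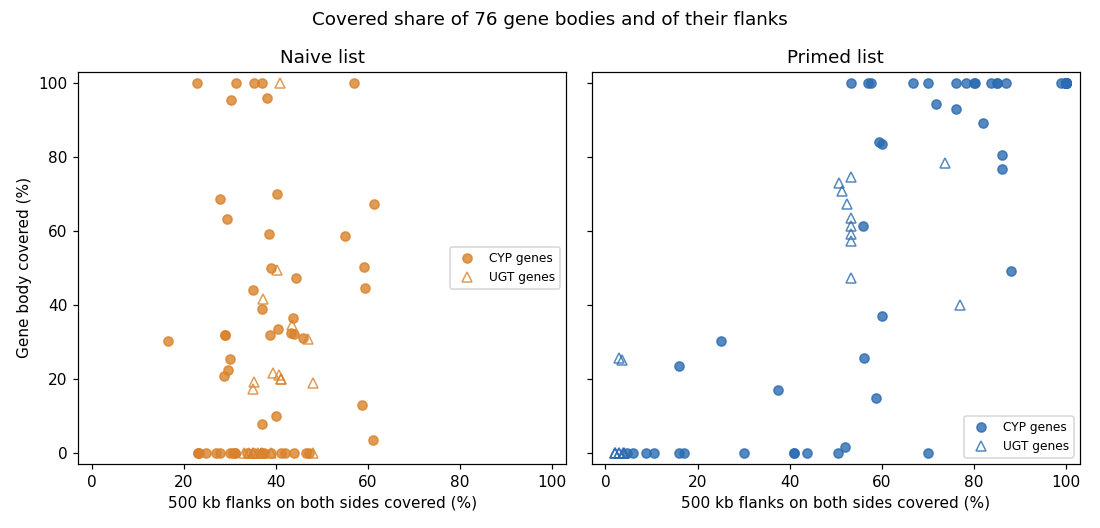
Gene body covered (vertical axis, percent) against the 500 kb flanks covered (horizontal axis, percent) for 76 members in the naive (left) and primed (right) list; filled circles are CYP and open triangles UGT genes. Primed values run from the lower left to the upper right, and naive flanks stay between 16.5% and 61.4% whatever the body's share.

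Members at 0 in the naive list lay at a median of 10.8 kb from a naive region, and those at 0 in the primed list 31.9 kb from a primed one. Such distances are not given over all coding genes. Of the 29 members with no naive cover, 14 had a naive region within 10 kb and 2 were more than 50 kb away, UGT1A3 and UGT1A1. Of the 20 with no primed cover, 4 had a primed region within 10 kb and 8 were more than 50 kb away, 6 of the latter on chromosome 4. With 10 kb added on each side of the body, 61 members touched naive NADs (80.3%, beside 89.8% of coding genes) and 60 primed NADs (78.9%, beside 86.7%). In primed NADs alone lay 11 (14.5%, beside 7.62%).

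The promoters tell whether a gene's start lay in a NAD. RefSeq windows were matched for 56 of the 76 members, and 50 of the 56 starts lie within 1000 bases of the body's outer limit. Naive regions held 21 windows (37.5%, beside 42.3% of the windows of 15812 coding genes) and primed regions 35 (62.5%, beside 66.2%). Both lists held 16, the naive list alone 5, the primed list alone 19 and neither list 16. The naive list alone thus held 8.93% of member windows, beside 10.9%, and the primed list alone 33.9%, beside 34.8%. The 5 in the naive list alone were those of CYP2U1, CYP2R1, UGT2B7, UGT2A2 and UGT3A2.

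Member promoters were poorer in CG pairs than promoters in general. Their median GC content was 53.7%, against 62.7% over all coding windows, and they had a median of 3.50 CG pairs per window against 22. TATAAA stood in 19 of 56 windows on either strand (33.9%, beside 9.64%), and on the gene's strand 20 to 35 bases before the start in 12 (21.4%, beside 3.57%). GCGTG stood in 17 (30.4%, beside 44.1%). Windows in primed regions alone had a median GC content of 51.0% with TATAAA in 8 of 19, those in both lists 54.5% with 6 of 16, those in neither 54.5% with 4 of 16, and those in naive regions alone 57.0% with 1 of 5. Across all coding genes the same medians were 64.3%, 63.0%, 61.0% and 60.7%, and TATAAA stood in 8.97%, 9.87%, 10.05% and 10.3% of windows. The 8 UGT1A windows had a median GC content of 44.0%, and 7 lay in primed regions. The 7 UGT2 windows had a median of 31.0%, and 1 lay in a primed region. These counts describe the windows and do not show binding by any factor.

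Pseudogenes of these families were measured too, some of them inside the clusters and others far from any cluster. Of 67 CYP and UGT pseudogenes, 36 lay in naive (53.7%) and 50 in primed NADs (74.6%), with 22 in primed NADs alone and 8 in naive NADs alone. Their median length is 1.098 kb, so many tend to be all in or all out. Of coding genes shorter than 10 kb, 54.3% lay in naive and 78.4% in primed NADs. In primed NADs alone lay 32.5% of these short coding genes, and in naive NADs alone 8.39%. Their median length is 4.419 kb, so the comparison is not matched for length. The median shares of the pseudogenes were 27.3% in naive and 100% in primed NADs, and those of the short coding genes 19.9% and 100%. UGT1A2P, in the UGT1A locus, was at 0 in naive and 100% in primed NADs, and UGT2B25P, in the UGT2 cluster, at 100% and 0. In the UGT2 cluster, UGT2B24P and UGT2B27P also lay in naive NADs alone, and UGT2B26P and UGT2A3P7 lay in neither list. Reads of near-identical copies may not be placed uniquely, which touches CYP2D6 and CYP2D7, CYP21A2 and CYP21A1P, the CYP2A, CYP2C, CYP3A, CYP4A, CYP11B and UGT2B genes, CYP2B6, CYP4Z1, CYP51A1 and the CYP4F genes other than CYP4F22. Without these 32 members, 27 of 44 lay in naive and 30 in primed NADs, with medians of 19.6% and 52.3%.

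Genes of the same pathways were taken from 10 lists, 98 genes in all. Of these, 82 lay in naive and 83 in primed NADs (83.7% and 84.7%, beside 76.8% and 81.8% of all coding genes). Their medians were 37.3% and 59.2%, beside 35.6% and 75.8%. Among 19 receptors and factors that control CYP and UGT genes, 16 lay in naive (84.2%) and 15 in primed NADs (78.9%). AHR, the aryl hydrocarbon receptor, had 63.2% in naive and 0 in primed NADs, and its partner ARNT 30.3% and 100%. NR1I2, the pregnane X receptor, had 0 and 55.0%, and HNF4A, a factor of hepatocyte identity, 31.2% and 100%. NR0B2, a repressor of bile acid synthesis, had 0 and 100%. All 5 electron donors of P450s lay in naive NADs and 4 in primed NADs. POR, the reductase of microsomal P450s, had 6.76% and 34.7%, and FDX1, the ferredoxin of mitochondrial ones, 56.3% and 0.

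The other lists are small, and their distance from the shares over all coding genes, 76.8% in naive and 81.8% in primed NADs, was not tested. In these lists, 6 of 8 haem synthesis genes lay in naive (75.0%) and 7 in primed NADs (87.5%). Of 5 flavin monooxygenases 3 lay in naive (60%) and 1 in primed NADs (20%). Of 13 sulfotransferases 11 lay in naive (84.6%) and 12 in primed NADs (92.3%). Of 19 glutathione transferases 16 lay in naive (84.2%) and 18 in primed NADs (94.7%). Of 11 steroid pathway genes 8 lay in naive (72.7%) and 11 in primed NADs (100%). Of 12 hepatic transporters 11 lay in naive (91.7%) and 10 in primed NADs (83.3%). The 3 genes for UDP-glucuronate supply were in both lists, and of TBXAS1, PTGIS and UGT8 all 3 were in naive and 2 in primed NADs. SULT1A2, GSTM1, GSTM5, GSTT2B and HSD3B1 had 0 in naive and 100% in primed NADs, and GSTO1 100% and 0.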

How the data were processed

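Regions were measured from nucleolar and whole-cell DNA of H9 cells. The authors deposited 1 list of regions per state (chromosome, start and end, with no score, height or p-value), and the labels of all 6 libraries of a state name 1 list; its name there differs in part from the deposited one, and the match rests on the state. Per the submitters' processing notes the tools were BWA, SAMtools 1.10 and SICER and the build hg38; their roles, order and settings, the read depth and how 3 replicates became 1 list were not stated there. Gene limits and promoter windows came from RefSeq tables on GRCh38.p14, the same assembly; 679 genes placed on other scaffolds were left out. Covered bases were summed per gene body with numpy 2.4.6 and pandas 2.3.3 (Python 3.11.15), scipy 1.17.1 gave the correlations and matplotlib 3.10.9 the drawings. The interval functions were tested on simulated data and gave 0 wrong answers in 400 cases. Values were given for every member that differed by 50 points or more between the lists, lay at 100% or at 0 in both, or was the highest or lowest of its cluster; pathway genes were named at 100% in 1 list and 0 in the other. The regulators, electron donors and pseudogenes named beside these, and members between those limits, were chosen after their values were seen, as were the role groups, the near-identical copies, the printed promoters, the motifs and the flank limits. Promoters were aligned globally. The members and the pathway lists were chosen with earlier results of these data known. Values of 1 member are not reported here by name. In all 10 alternatives were computed, and no test was made.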

Additional observations from a re-analysis of the deposited data

How the results depend on the processing

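No paired analysis was possible because each state has 1 deposited list, so replicate numbers cannot be matched and no replicate could be left out. In primed NADs more members lay than in naive NADs, and the primed list alone held more than the naive list alone, by all settings but these. With 50 kb gaps merged, 61 lay in naive and 58 in primed NADs. The primed list alone held 12 (15.8%, beside 8.16% of coding genes) and the naive list alone 15 (19.7%, beside 11.4%). With 10 kb added on each side, 61 lay in naive and 60 in primed NADs. The primed list alone then held 11 (14.5%, beside 7.62%) and the naive list alone 12 (15.8%, beside 10.7%). Of 40 alternative counts 25 stayed within 1.5 times the reported count. When 50% of the body had to be covered, 15 lay in naive NADs, 7 in naive alone (9.21%, beside 8.59% of coding genes) and 36 in primed alone (47.4%, beside 35.1%). At 90% there were 8 in naive (10.5%, beside 14.4%), 29 in primed (38.2%, beside 44.4%) and 4 in naive alone (5.26%, beside 3.24%). Promoter windows gave 21 in naive, 35 in primed and 5 in naive alone. Without the 32 members that have near-identical copies, 27 of 44 lay in naive and 30 in primed NADs, 7 in naive alone and 10 in primed alone. Of those 10 in primed alone, 7 were UGT1A genes, which share DNA. Median covered shares (naive, then primed) were 0 and 49.4% with regions of at least 20 kb, 23.5% and 97.2% with 10 kb gaps merged, 100% and 100% with 50 kb gaps merged, 28.1% and 64.2% with 10 kb added, 0 and 100% for promoter windows, 23.9% and 77.6% with UGT1A as 1 locus, and 19.6% and 52.3% without near-identical copies. Over all coding genes the medians were 6.41% and 70.5% with regions of at least 20 kb, and 43.9% and 100% with 10 kb gaps merged. They were 100% and 100% with 50 kb gaps merged, 38.0% and 69.8% with 10 kb added, and 0 and 100% for promoter windows. Without chromosome 19 the primed median was 53.2%, beside 67.9% of coding genes' bodies. Depth is unknown, so the lists may differ in sensitivity.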
